A study of Mus musculus with 61 samples.

Results

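Cdx1, Cdx2 and Cdx4, the 3 caudal-type homeobox genes of the mouse, were followed through stembryos, elongating aggregates of mouse embryonic stem cells that are also called gastruloids. Their rows were picked by gene symbol from a table of 55052 genes, and all 3 were found, once each. Of the 61 poly-A RNA-seq libraries, 16 formed a wild-type (wt) time course of 8 stages, with 2 libraries each (72, 84, 96, 108, 120, 132, 144 and 168 h after aggregation). A further 10 wt libraries stood outside it, with 4 each for the stages 96 and 120 h and 2 for 144 h, and 35 came from 8 mutant lines. Every group, wt included, had received a pulse of the GSK-3 inhibitor Chiron, which activates Wnt signalling, before 72 h, and from 108 h on only elongating stembryos were collected and pooled. Values are FPKM, fragments scaled to transcript length and to the library's mapped fragments, so that levels of different genes may be set side by side per length.

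The mutant lines all carried homozygous changes in or beside the HoxD cluster on chromosome 2, and none touched a Cdx gene. Del(CBS1), Del(CBS2), Del(CBS1-2), Del(CBS4) and Del(CBS1-5) lacked 1 or several of the numbered binding sites of CTCF, the protein that anchors chromatin loops, and Del(CBS1-2) had been made on top of Del(CBS1). Ins(2xCBS-d4d8) held a cassette with 2 added CTCF sites between Hoxd4 and Hoxd8. Del(d1-d4) lacked Hoxd1 to Hoxd4 with CBS1 kept, and Del(sub-TAD1) lacked the neighbouring regulatory domain, its line carrying a transgene that replaces the lost gene Mtx2. Stem cells of Del(sub-TAD1) and Del(CBS1-5) came from blastocysts of mutant mice and the others were clones edited in the wt line, so that a line's derivation and its allele cannot be told apart. Del(CBS4) was collected at 120 and 144 h, Del(CBS1-5) at 96, 120 and 144 h and the other lines at 96 and 120 h, with 2 libraries per condition or 3 for Del(sub-TAD1) at 96 h. The labels call the libraries replicates of pooled stembryos, and p-values measure the spread between such pools only. In pooled tissue, fewer cells of a type and less RNA per cell cannot be told apart.

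As background, Cdx proteins are homeodomain transcription factors of the posterior embryo. The genes are switched on in the primitive streak and tail bud downstream of Wnt, FGF and retinoic acid signals, bind at Hox clusters and help to activate central Hox genes during trunk elongation. Cdx2 also acts in the trophectoderm and, with Cdx1, in the intestinal epithelium, while Cdx4 lies on the X chromosome. Cdx1 and Cdx2 belong to gene sets descended from an ancestral ParaHox cluster, and Cdx2 still neighbours Pdx1.

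Promoters are shown for 2 members, Cdx2 and Cdx4, because both genes were present at late stages while Cdx4 came on later than Cdx2. The promoter of Cdx1 was not examined. Each runs from 250 bases before the start of transcription to 50 bases after it, 5′ to 3′ on the gene's own strand, on GRCm38.p6 at chr5:147307200-147307499 (minus strand) for Cdx2 and at chrX:103321148-103321447 (plus strand) for Cdx4. Capitals mark matches to the octamer ATGCAAAT, the letters that POU factors bind, to the CCAAT box CCAAT, on either strand, and to the cyclic AMP response element TGACGTCA.
Cdx2 promoter: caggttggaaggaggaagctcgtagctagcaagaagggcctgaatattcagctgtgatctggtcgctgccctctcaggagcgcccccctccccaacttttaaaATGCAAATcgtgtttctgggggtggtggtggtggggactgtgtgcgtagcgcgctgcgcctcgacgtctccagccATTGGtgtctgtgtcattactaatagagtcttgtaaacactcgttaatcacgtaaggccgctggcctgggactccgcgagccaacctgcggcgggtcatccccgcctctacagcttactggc
Cdx4 promoter: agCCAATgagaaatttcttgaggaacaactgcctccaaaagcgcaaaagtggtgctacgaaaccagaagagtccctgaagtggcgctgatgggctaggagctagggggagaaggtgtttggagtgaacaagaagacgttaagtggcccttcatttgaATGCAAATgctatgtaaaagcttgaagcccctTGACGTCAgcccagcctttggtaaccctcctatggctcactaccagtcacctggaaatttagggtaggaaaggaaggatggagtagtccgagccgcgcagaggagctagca
Both windows held the octamer once, its first base 147 bases before the start in Cdx2 and 93 bases before it in Cdx4. Of all 32851 promoters of this length, 1.74% held the octamer on either strand. A CCAAT box stood in both windows, as in 37.4% of promoters, and TGACGTCA stood in that of Cdx4, as in 1.79%. The letters CTTTGAT (a TCF/LEF site, in 3.73% of promoters), TTTATG (a CDX site, in 11.9%) and TATAAA (in 13.6%) were in neither window. The motifs were chosen after the sequences had been seen, and a match is a description of letters.

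The genes lie far apart. On mm10, Cdx1 (ENSMUSG00000024619) spans positions 61018862 to 61036199 of chromosome 18 on the minus strand, Cdx2 (ENSMUSG00000029646) spans 147300805 to 147307270 of chromosome 5 on the minus strand and Cdx4 (ENSMUSG00000031326) spans 103321398 to 103330592 of chromosome X on the plus strand. GENCODE vM21 gives each 1 transcript of 3 exons, 1750 bases long for Cdx1, 2261 for Cdx2 and 1963 for Cdx4, and the tables list no gene that overlaps them. Depth, inferred from the intervals that cufflinks printed, was 14.4 M to 37.5 M (mega) fragments per library (median 23.0 M). The members' values rested on 37.6 to 13134 fragments for Cdx1, 209 to 9782 for Cdx2 and 14.7 to 2214 for Cdx4, so that counting error was at most 16.3%, 6.91% and 26.1% of the value. The libraries fell into 28 with 995 to 1718 FPKM of the mitochondrial mRNA mt-Co3 and 33 with 0.338 to 2.76 FPKM. The second set held the time course, 1 of the 4 wt libraries at 96 h and at 120 h, wt at 144 h, the Del(sub-TAD1) libraries of 96 h, the Del(CBS1-5) libraries of 144 h, and all of Del(CBS4) and Ins(2xCBS-d4d8), so most comparisons of these lines also cross the sets, and the part of the sets in a difference was not tested except where a value within the set is given.

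In the time course Cdx1 and Cdx2 were highest at 84 h and Cdx4 at 108 and 132 h, and Cdx1 then fell furthest. Cdx1 measured 61.9 and 146 FPKM in the 2 libraries at 72 h and 392 and 350 FPKM at 84 h. It measured 194 and 88.0 FPKM at 96 h, 52.0 and 55.5 FPKM at 108 h, 20.7 and 18.9 FPKM at 120 h, 12.2 and 12.9 FPKM at 132 h and 11.6 and 10.5 FPKM at 144 h. At 168 h 1.82 and 1.34 FPKM were left, a mean 235 times below that at 84 h. Apart from the overlapping libraries of 72 and 96 h, each stage was separate from the next in the order of means.

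Cdx2, which shares targets with Cdx1, moved within a narrower range. It measured 16.8 and 36.8 FPKM at 72 h, 156 and 123 FPKM at 84 h, 112 and 25.3 FPKM at 96 h and 76.3 and 80.7 FPKM at 108 h. At 120 h it stood at 41.5 and 71.8 FPKM, at 132 h at 53.5 and 56.1 FPKM, at 144 h at 62.1 and 59.5 FPKM and at 168 h at 23.4 and 21.3 FPKM. The stages from 96 to 144 h overlapped with their neighbours in the order of means, and the highest mean, at 84 h, was 6.24 times the lowest, at 168 h.

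Cdx4, the X-linked member, came on last. It measured 0.393 and 1.03 FPKM at 72 h, 6.70 and 5.85 FPKM at 84 h, 46.8 and 0.953 FPKM at 96 h and 51.3 and 54.0 FPKM at 108 h. It then stood at 10.3 and 53.3 FPKM at 120 h, 53.1 and 52.1 FPKM at 132 h, 37.4 and 38.5 FPKM at 144 h and 12.9 and 9.65 FPKM at 168 h. Its replicates differed by 49.1 times at 96 h and by 5.16 times at 120 h, and by at most 2.63 times at every other stage. Taking onset as the earliest stage with 1 FPKM or more in both replicates, Cdx1 and Cdx2 were on at 72 h and Cdx4 from 84 h, although 1 library at 96 h was again below that level.

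**Figure D1:**
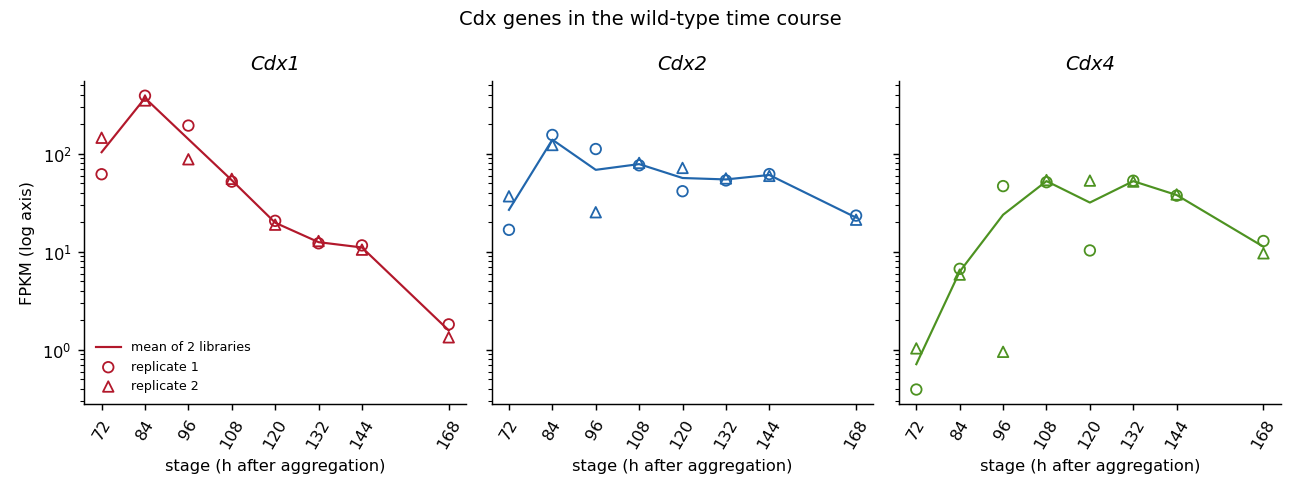
FPKM (log axis) of Cdx1, Cdx2 and Cdx4 against stage in hours in the wild-type time course, with circles and triangles for replicates 1 and 2 and lines through the means of 2 libraries. Cdx1 and Cdx2 peaked at 84 h, Cdx1 ended at 1.82 and 1.34 FPKM, and replicate 2 at 96 h lay below replicate 1 for all 3 genes.

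Replicate 2 at 96 h stood apart from its partner in all 3 genes. The age of each library was estimated against the time course from genes other than Hox and Cdx genes. Time-course libraries were aged against the other replicate's series only and all others against the mean of both, so the 2 kinds of age are not strictly comparable. Replicate 2 at 96 h came out at 92 h, younger than replicate 1. Its Cdx4 level of 0.953 FPKM was the lowest among the libraries estimated at 90 to 93 h. The nearest were the 3 libraries of Del(sub-TAD1) at 96 h, at 91 and 92 h with 2.93 to 4.17 FPKM, and the others ranged from 22.4 FPKM in Del(CBS1) to 55.5 FPKM in Ins(2xCBS-d4d8), with 27.8 FPKM in wt replicate 3 outside the time course. The part of age in this difference was not tested. Replicate 1 at 120 h, the low one for Cdx4, was estimated at 126 h and its partner at 127 h.

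Steps between successive stages were tested with limma on log2(FPKM + 0.1) over the 17098 genes whose mean reached 1 FPKM in some condition, with p-values adjusted over all of them. Of the 21 tests of the 3 members, 10 passed the adjusted threshold of 0.05. Of all genes, 16.3% passed from 72 to 84 h, 20.7% from 84 to 96 h, 9.45% from 96 to 108 h, 7.06% from 108 to 120 h, 2.46% from 120 to 132 h, 5.42% from 132 to 144 h and 9.87% from 144 to 168 h.

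All 3 members rose from 72 to 84 h. The log2 change was 1.96 for Cdx1 (SE 0.305, adjusted p = 9.35e-06 by limma), 2.47 for Cdx2 (SE 0.334, adjusted p = 7.54e-07) and 3.09 for Cdx4 (SE 0.772, adjusted p = 0.00402). From 84 to 96 h Cdx1 fell by 1.502 (adjusted p = 0.000334) and Cdx2 fell by 1.38 (adjusted p = 0.00237) on the log2 scale, but without replicate 2 at 96 h these differences were -0.93 (adjusted p = 0.0603) and -0.31 (adjusted p = 0.570). Cdx4 showed the reverse dependence, with a log2 difference of 0.14 from all libraries and 2.88 (adjusted p = 5.10e-05) without that replicate. From 96 to 108 h Cdx1 fell by 1.28 (adjusted p = 0.00520), with a difference of -0.66 without replicate 1 of the time course (adjusted p = 0.310), whereas the rise of Cdx4 by 2.91 (adjusted p = 0.0122) rested on replicate 2 at 96 h and was 0.17 without that library. In a fit of the time-course libraries alone the rise of Cdx4 from 72 to 84 h (adjusted p = 0.234), the fall of Cdx2 from 84 to 96 h (0.187) and both calls from 96 to 108 h (0.136 for Cdx1 and 0.329 for Cdx4) did not pass.

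Later only Cdx1 and Cdx2 passed the threshold with all libraries in the fit. Cdx1 fell by 1.44 on the log2 scale from 108 to 120 h (adjusted p = 0.00233) and fell by 2.75 from 144 to 168 h (adjusted p = 4.06e-08). Cdx2 fell by 1.44 from 144 to 168 h (adjusted p = 0.00329). In a fit of the time-course libraries alone neither the fall of Cdx1 from 108 to 120 h (adjusted p = 0.115) nor that of Cdx2 (adjusted p = 0.235) passed. The difference of Cdx4 from 144 to 168 h was -1.76 (SE 0.772, adjusted p = 0.166), and it passed the threshold once replicate 2 at 96 h was left out of the shared estimate of the spread (adjusted p = 0.00267). Between 120 and 144 h none of 6 steps of a member passed in limma, and 1 had an unadjusted p under 0.05.

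Set against 84 h, the stage of their maximum, Cdx1 at 168 h was lower by a log2 difference of -7.80 (SE 0.305, adjusted p = 8.65e-21) and Cdx2 by -2.63 (SE 0.334, adjusted p = 4.30e-08), while 41.8% of all genes passed in this comparison. Cdx4 was higher at 168 h than at 84 h in both libraries, with a log2 difference of 0.82 (SE 0.772, adjusted p = 0.470) that did not pass.

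The largest part of Cdx mRNA passed from Cdx1 to Cdx2 between 96 and 108 h. Of the summed FPKM of the 3 genes, Cdx1 made up 78.3% and 79.4% in the 2 libraries at 72 h, 70.7% and 73.1% at 84 h, 29.0% and 29.2% at 108 h and 4.77% and 4.16% at 168 h. Cdx2 rose from 21.2% and 20.1% at 72 h to 42.5% and 42.4% at 108 h and to 61.4% and 65.9% at 168 h. Cdx4 held 0.497% and 0.562% at 72 h, reached 44.7% and 43.0% at 132 h and stood at 33.8% and 29.9% at 168 h. Cdx1 was 3.69 and 3.96 times as high as Cdx2 at 72 h, and Cdx2 was 12.9 and 15.9 times as high as Cdx1 at 168 h.

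**Figure D2:**
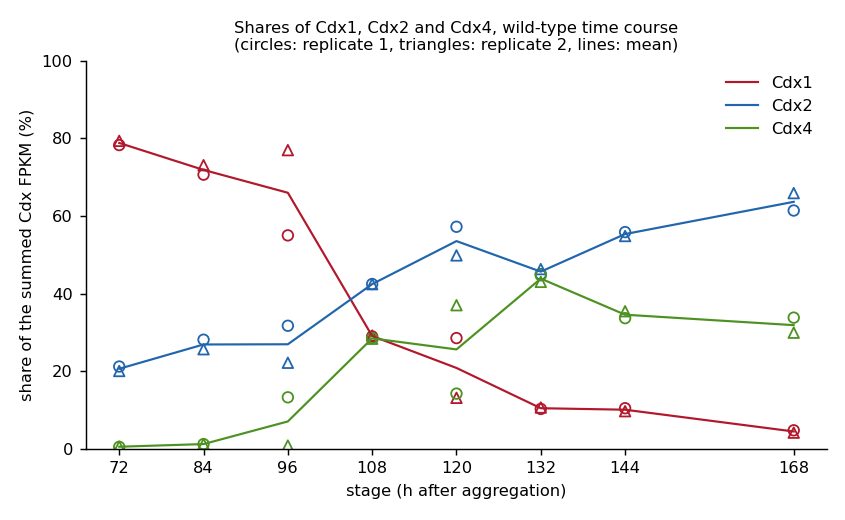
Share of Cdx1, Cdx2 and Cdx4 in their summed FPKM (percent) against stage in hours in the wild-type time course, with circles and triangles for replicates 1 and 2 and lines through the means. Cdx1 fell from 78.3% and 79.4% at 72 h to 4.77% and 4.16% at 168 h, while Cdx4 was largest at 132 h.

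Signalling and tissue genes were counted over the same steps from lists chosen with earlier results of these data known. Several genes stand in more than 1 list, such as Wnt3a, Fgf8 and Rspo3, and the median log2 change of all genes was 0 in each of the steps named here. From 72 to 84 h, when the members rose, all 7 presomitic mesoderm genes rose (median 3.54), among them Msgn1 by 2.83 and Tbx6 by 3.78, both regulators of that tissue. Of 12 FGF genes 7 rose and 1 fell (median 0.73), of 5 Wnt ligands 3 rose and 1 fell (median 1.18), and of 7 tested retinoic acid genes 4 rose (median 0.52), led by Aldh1a2, a retinaldehyde dehydrogenase, at 7.41. Of 15 central Hox genes (groups 5 to 9) 11 rose (median 3.71). Other lists were mixed, with 3 of 8 axial progenitor genes higher and 1 lower (median 0.28) while their sum went from 1167 to 1495 FPKM to 932 to 1087 FPKM. Of 6 pluripotency genes 1 fell (median -0.55), with sums of 1198 to 1223 FPKM at 72 h and 548 to 577 FPKM at 84 h, and of 6 tested gut endoderm genes 1 rose and 1 fell (median -0.20).

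From 144 to 168 h, when Cdx1 and Cdx2 fell, 9 of 12 FGF genes fell (median -1.21), 3 of 5 Wnt ligands fell (median -0.51) and 6 of 12 Wnt effectors and targets fell (median -0.33). Of 8 axial progenitor genes 5 fell (median -1.88), including T (brachyury, log2 change -1.89) and Nkx1-2 (-1.98), and of 7 presomitic mesoderm genes 4 fell and 1 rose (median -1.64). No central Hox gene passed in that step (median 0.17). Of 6 spinal cord genes 3 rose (median 1.59), their sum going from 53.0 to 58.2 FPKM to 183 to 195 FPKM, and of 6 tested somite genes 2 fell (median -1.55). Of the other ParaHox genes only Gsx1, a neural factor, was tested, and it rose by 3.76 on the log2 scale, while Gsx2 and Pdx1 did not reach the filter.

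Cdx2 is also a trophectoderm gene. The 10 genes of that list summed to 43.4 to 106 FPKM at 72 h, 50.3 to 56.0 FPKM at 84 h, 7.48 to 9.16 FPKM at 108 h and 51.3 to 56.0 FPKM at 144 h. Most of the sum after 72 h came from Krt8 and Krt18, keratins of simple epithelia in general, with means of 31.6 and 13.5 FPKM at 84 h and 19.6 and 25.5 FPKM at 144 h. Of the narrower markers, Elf5 had a mean of 0 to 0.239 FPKM over the stages and Plet1 0.015 to 0.139 FPKM, and Eomes, which the primitive streak expresses too, had 50.2 FPKM at 72 h and 2.25 FPKM at 84 h.

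The 8 gut endoderm genes, of the other tissue that uses Cdx2, summed to 186 to 205 FPKM at 72 h, 96.6 to 106 FPKM at 84 h, 22.6 to 28.3 FPKM at 108 h and 116 to 134 FPKM at 144 h. Epcam, an adhesion molecule of epithelia and of stem cells, and Cldn6, a tight junction protein, made up most of this, with means of 27.8 and 68.0 FPKM at 144 h. The endoderm regulator Foxa2 had means of 0.777 to 13.7 FPKM over the stages and Sox17 of 1.38 to 6.10 FPKM, while Hnf4a had 0.011 to 0.127 FPKM and Vil1 was listed at 0 throughout. The part of these tissues in the Cdx2 values was not tested.

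Wild-type libraries outside the time course differed from those in it at 144 h, while at 96 and 120 h no member difference passed. At 96 h the 4 libraries had 124, 137, 199 and 194 FPKM of Cdx1, 59.5, 65.2, 76.1 and 60.1 FPKM of Cdx2 and 13.9, 17.3, 27.8 and 17.2 FPKM of Cdx4. At 120 h they had 11.0, 11.2, 22.0 and 15.0 FPKM of Cdx1, 54.3, 49.7, 54.3 and 57.9 FPKM of Cdx2 and 31.4, 27.9, 35.9 and 50.9 FPKM of Cdx4. Every one of these ranges overlapped with that of the 2 time-course libraries. None of the 6 limma tests passed (1 had an unadjusted p under 0.05), in comparisons in which 32.3% of all genes passed at 96 h and 30.1% at 120 h. For Cdx2 and Cdx4 the time-course pair enclosed the outside values at both stages, so these tests cannot show that levels were alike. Leaving out replicate 2 of the time course at 96 h turned 2 of these differences round, to -0.79 for Cdx2 (adjusted p = 0.0269) and -1.34 for Cdx4 (adjusted p = 0.0369).

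At 144 h the wt libraries outside the time course had 1.39 and 1.43 FPKM of Cdx1, against 11.6 and 10.5 FPKM inside it. Cdx2 measured 22.2 and 25.3 FPKM against 62.1 and 59.5 FPKM, and Cdx4 4.85 and 7.20 FPKM against 37.4 and 38.5 FPKM. All 3 were lower outside, by log2 differences of -2.88 (SE 0.305, adjusted p = 2.52e-08) for Cdx1, -1.36 (SE 0.334, adjusted p = 0.00303) for Cdx2 and -2.66 (SE 0.772, adjusted p = 0.0112) for Cdx4, while 21.5% of all genes passed. The estimated ages were 157 and 158 h outside against 151 and 140 h inside, and Cdx1 and Cdx2 outside overlapped with the time course at 168 h, whereas Cdx4 was below its 12.9 and 9.65 FPKM of that stage. Without wt replicate 1 the Cdx4 difference was -2.38 (adjusted p = 0.0964). Of the axial progenitor genes 6 of 8 were lower outside too (median -1.90), and of the FGF genes 10 of 12 (median -1.43). Of 6 spinal cord genes 4 were higher outside (median 1.52), with sums of 104 to 117 FPKM against 53.0 to 58.2 FPKM inside. The mutants at 144 h are therefore set against both kinds of wt library.

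Against stage-matched wt outside the time course, 7 of 51 tests of a member passed in 17 mutant conditions. Between 6.15% and 40.0% of all genes passed in the conditions with most calls, 40.0% for Del(sub-TAD1) at 96 h, 37.5% for Del(CBS4) at 120 h, 27.9% and 26.9% for Ins(2xCBS-d4d8) at 96 and 120 h, 23.7%, 14.8% and 13.3% for Del(CBS1-5) at 144, 96 and 120 h and 6.15% for Del(sub-TAD1) at 120 h. In the others 4.49% and 2.35% passed for Del(CBS1-2) at 96 and 120 h, 1.23% and 2.10% for Del(CBS1), 0.298% and 0.193% for Del(CBS2), 1.19% and 1.85% for Del(d1-d4) and 2.05% for Del(CBS4) at 144 h. Conditions of the same stage share their wt libraries, so their differences are not independent of each other.

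**Figure D3:**
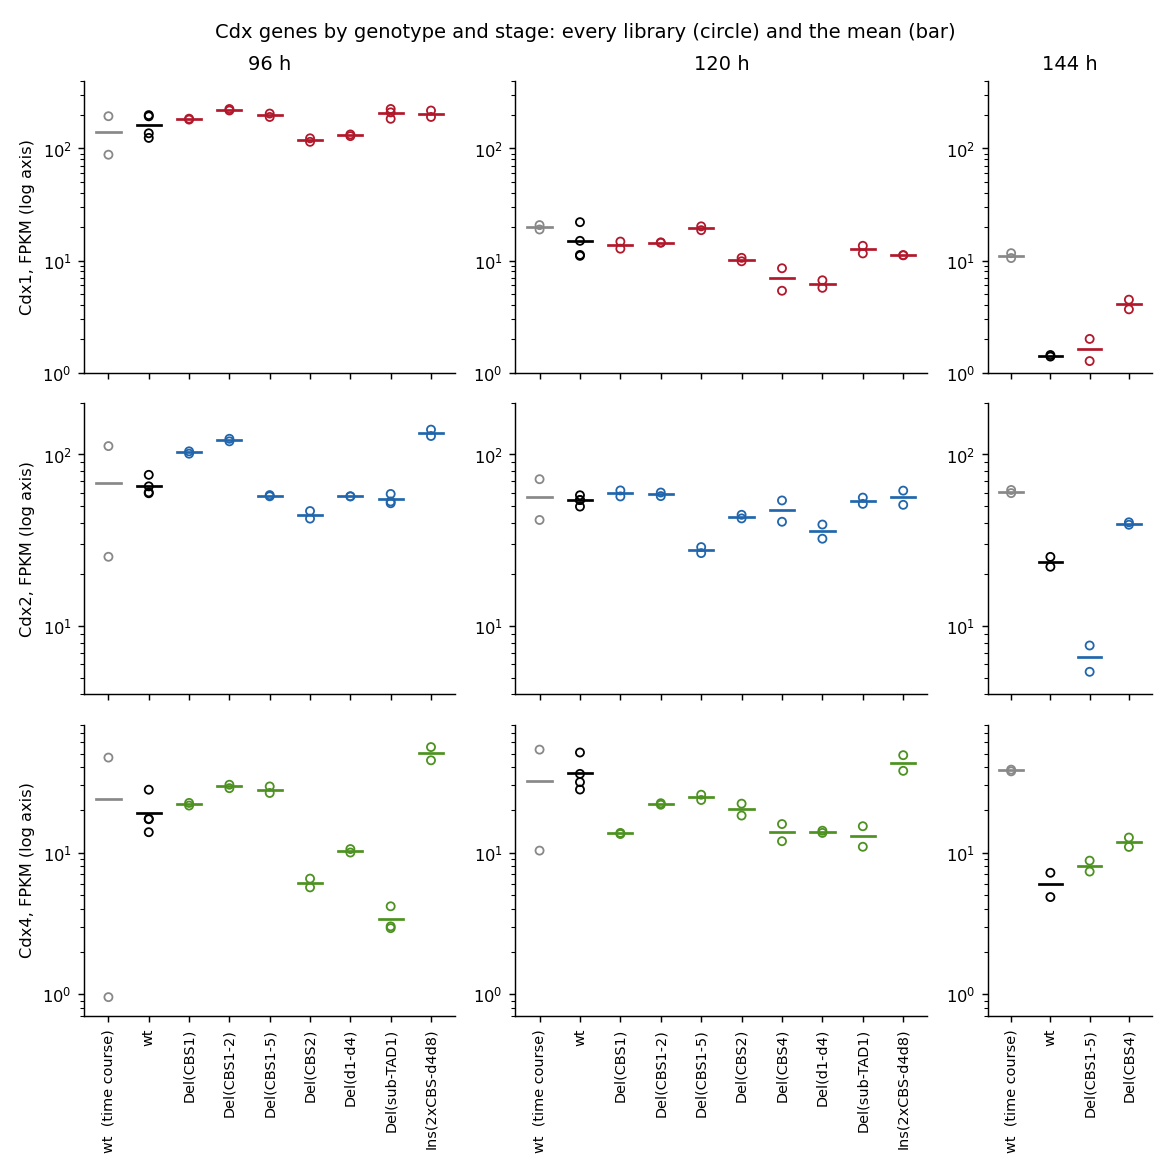
FPKM (log axis) of Cdx1, Cdx2 and Cdx4, from top to bottom, in every library of wild type and mutants at 96, 120 and 144 h, with circles for libraries and bars for their means. At 144 h Cdx2 of Del(CBS1-5), 5.41 and 7.71 FPKM, lay below wild type of both series, and at 96 h Cdx4 of Del(sub-TAD1) lay between 2.93 and 4.17 FPKM.

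Cdx1 differed in 3 conditions with all libraries in 1 fit, and in none of them with only the libraries compared. In Del(CBS4) at 120 h it measured 8.53 and 5.37 FPKM, both below all 4 wt libraries, with a log2 difference of -1.06 (SE 0.264, adjusted p = 0.00229). In Del(d1-d4) at 120 h it measured 6.66 and 5.71 FPKM, again below all wt libraries, with a difference of -1.19 (SE 0.264, adjusted p = 0.0103). Without wt replicate 3, the highest at 120 h with 22.0 FPKM, this last difference was -0.98 (adjusted p = 0.0510), and without either Del(d1-d4) library it did not pass (adjusted p = 0.0952 and 0.292). That of Del(CBS4) without its second library was -0.73 (adjusted p = 0.121). The wt libraries themselves ranged from 11.0 to 22.0 FPKM. With only the libraries compared, limma gave adjusted p = 0.209 for Del(CBS4) and 0.755 for Del(d1-d4). Relative to the time course at the estimated age, the difference of Del(d1-d4) did not pass either (adjusted p = 0.153).

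Against wt outside the time course, the Cdx1 difference of Del(CBS4) changed sign by 144 h. Its 4.47 and 3.67 FPKM were above the 1.39 and 1.43 FPKM of that wt (log2 difference 1.46, SE 0.305, adjusted p = 0.00482). This difference did not pass without wt replicate 1 (adjusted p = 0.0737) or without the first mutant library (adjusted p = 0.131). Against the time course of 144 h the same libraries were lower, by -1.43 (adjusted p = 0.000978). Against all wt libraries of 144 h together the log2 difference was 0.015 and did not pass. With only the libraries compared, the difference from wt outside the time course did not pass (adjusted p = 0.0608). The Del(CBS4) libraries at 144 h had estimated ages of 136 and 127 h, younger than either wt pair. The change from 120 to 144 h differed from that of wt by 2.52 on the log2 scale (SE 0.404, adjusted p = 7.57e-05), the only 1 of 27 such tests of change between stages that passed.

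Of all genes, 8.27% passed in that test for Del(CBS4), 7.07% for Del(CBS1-5) from 120 to 144 h and 23.6% for Del(sub-TAD1) from 96 to 120 h. Over the latter stages 0.175% passed for Del(CBS1-2), 0.257% for Del(CBS1-5), 0.0526% for Del(CBS1), 0.0117% for Del(CBS2), 0.0234% for Del(d1-d4) and 0.392% for Ins(2xCBS-d4d8). With wild type of the mutant's own library set, time course included, the Cdx1 difference of Del(CBS4) was 1.42 and did not pass (adjusted p = 0.408), and relative to the time course at the estimated age it was 1.14 (adjusted p = 0.215).

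No other Cdx1 difference passed. At 96 h all 15 mutant libraries lay between 115 and 225 FPKM (median 191) and the 4 wt libraries between 124 and 199 FPKM. At 120 h all 16 mutant libraries lay between 5.37 and 20.2 FPKM (median 11.4). At 144 h Del(CBS1-5) had 1.27 and 2.00 FPKM, overlapping with wt outside the time course (log2 difference 0.16, SE 0.305), but was lower by -2.72 (adjusted p = 1.74e-08) than the time course.

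Cdx2 was lower in Del(CBS1-5) at 120 and 144 h. It measured 58.0 and 57.0 FPKM at 96 h (log2 difference -0.17, SE 0.290), 28.9 and 26.6 FPKM at 120 h (-0.96, SE 0.290, adjusted p = 0.0244) and 5.41 and 7.71 FPKM at 144 h (-1.86, SE 0.334, adjusted p = 5.92e-05). At each stage both libraries lay below all wt libraries of the stage outside the time course. The fall at 144 h passed under all 17 alternative settings, between -3.21 and -1.61, the first against the time course. That at 120 h passed in 17 of 19 settings and was lost when either mutant library was left out (adjusted p = 0.142 and 0.180). The change from 120 to 144 h did not differ from that of wt past the threshold (log2 -0.90, SE 0.442, adjusted p = 0.252), although it did in a fit of the libraries outside the time course (adjusted p = 0.00198).

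Beside this fall, pluripotency genes were high in Del(CBS1-5). Their sum over 6 genes was 264 to 266 FPKM at 144 h against 4.06 to 6.24 FPKM in wt outside the time course and 32.2 to 34.6 FPKM inside it. Against wt outside, Pou5f1 (Oct4) and Nanog, the core factors of stem cells, were higher by log2 differences of 6.57 and 6.46. At 144 h 5 of the 6 genes were higher and 1, Klf4, lower, and at 120 h 4 of 6 were higher. Of 6 spinal cord genes 5 were lower at 144 h (median -2.05), their sum being 29.5 to 31.8 FPKM against 104 to 117 FPKM in wt outside and 53.0 to 58.2 FPKM inside, and of 8 gut endoderm genes in the list, 6 tested, 3 were lower (median -1.80). The 10 trophectoderm genes summed to 75.4 to 87.3 FPKM against 61.9 to 75.1 FPKM in wt outside and 51.3 to 56.0 FPKM inside, with Elf5 at 0.012 FPKM and 4 of 9 tested genes higher. The part of these cells in the Cdx2 values was not tested.

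Cdx2 was higher in Ins(2xCBS-d4d8) at 96 h, at 140 and 128 FPKM, above all 4 wt libraries (log2 difference 1.04, SE 0.290, adjusted p = 0.00741), and at 120 h its 50.9 and 61.6 FPKM overlapped with wt. With only the libraries compared the difference at 96 h did not pass (adjusted p = 0.0626), and without the first mutant library it was 0.98. Del(CBS1-2) at 96 h, at 119 and 123 FPKM, and Del(CBS1) at 96 h, at 101 and 104 FPKM, also lay above all wt libraries. Their differences were 0.90 (SE 0.290, adjusted p = 0.0672) and 0.66 (SE 0.290, adjusted p = 0.283), and in a fit of the libraries outside the time course both passed (adjusted p = 4.52e-05 and 0.00369). In Ins(2xCBS-d4d8) at 96 h, of all 17098 genes tested 2086 were higher and 2680 lower. Among the higher were 4 of 8 axial progenitor genes, with Nkx1-2 by 1.43 and Sox2 by 1.53, and 5 of 12 Wnt effectors and targets, led by Notum, a Wnt antagonist, at 1.84. The summed Wnt effectors and targets, at 781 to 789 FPKM, nevertheless lay within the 661 to 824 FPKM of wt. The summed presomitic mesoderm genes were lower there, at 513 to 520 FPKM against 640 to 804 FPKM in wt. The part of these tissues in the Cdx2 values was not tested.

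No other Cdx2 difference passed. At 120 h all 16 mutant libraries lay between 26.6 and 61.7 FPKM (median 51.2), against 49.7 to 57.9 FPKM in wt. At 96 h the 15 mutant libraries spanned 42.3 to 140 FPKM (median 58.0). In Del(CBS4) at 144 h, 40.2 and 38.9 FPKM lay between wt outside the time course and wt inside it (log2 difference 0.74 from the former, SE 0.334, adjusted p = 0.312).

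Cdx4 was lowest in Del(sub-TAD1) at 96 h among the mutants. Its 3 libraries had 3.01, 2.93 and 4.17 FPKM, all below the 13.9 to 27.8 FPKM of wt, with a log2 difference of -2.43 (SE 0.590, adjusted p = 0.00150). Their estimated ages were 92, 91 and 91 h. The wt libraries of 96 h estimated at 92 h were replicate 3 outside the time course, with 27.8 FPKM, and replicate 2 of the time course, with 0.953 FPKM. The difference from wt passed in 18 of 20 alternative settings, among them relative to the time course at the estimated age. The part of age was not tested beyond that fit. Against the time course alone, which holds the replicate at 0.953 FPKM, the difference was -1.04 (adjusted p = 0.369), and against wt of the same library set -1.47 (adjusted p = 0.131). Cdx1 and Cdx2 had log2 differences of 0.36 (SE 0.233) and -0.25 (SE 0.255) there, and neither passed.

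In the same comparison 11 of 15 central Hox genes were lower (median -1.34, all genes 0.064), 6 of 6 tested gut endoderm genes higher (median 1.39) and 4 of 6 pluripotency genes higher (median 1.69). The summed pluripotency genes reached 68.4 to 205 FPKM against 32.0 to 111 FPKM in wt, and the gut endoderm genes 70.3 to 106 FPKM against 26.0 to 40.3 FPKM. Their part in the Cdx4 value was not tested.

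At 120 h both libraries lay below all 4 wt libraries outside the time course in 7 of the 8 mutants, the exception being Ins(2xCBS-d4d8) with 37.8 and 48.7 FPKM. They had 13.8 and 13.5 FPKM in Del(CBS1), 15.9 and 12.0 FPKM in Del(CBS4), 14.3 and 13.8 FPKM in Del(d1-d4) and 11.0 and 15.3 FPKM in Del(sub-TAD1), against 27.9 to 50.9 FPKM in wt. Del(CBS2), with 18.2 and 22.1 FPKM, Del(CBS1-2), with 22.3 and 21.8 FPKM, and Del(CBS1-5), with 25.6 and 23.5 FPKM, were closer to wt. All 7 share the same wt libraries. The time course at 120 h, with 10.3 and 53.3 FPKM, enclosed every one of these values, so that the mutants lay within the spread of all 6 wt libraries. Of all genes, 12.0% were below all wt libraries in both libraries of Del(CBS1), 17.3% in Del(CBS4), 13% in Del(d1-d4), 10.9% in Del(sub-TAD1), 9.28% in Del(CBS2), 18.2% in Del(CBS1-2), 16% in Del(CBS1-5) and 11.8% in Ins(2xCBS-d4d8).

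None of the 8 Cdx4 differences at 120 h passed with all libraries in 1 limma fit (2 had an unadjusted p under 0.05), where the spread of Cdx4 included the replicate at 0.953 FPKM. They were -1.38 in Del(CBS1), -1.36 in Del(CBS4), -1.34 in Del(d1-d4) and -1.45 in Del(sub-TAD1), each with an SE of 0.669. In a fit of the 45 libraries outside the time course the SE was 0.223 and all 4 passed (adjusted p = 0.000472, 6.02e-05, 0.000886 and 0.000107). Leaving out only replicate 2 of the time course at 96 h gave an SE of 0.348 and the same 4 calls. That change of the fit raised the number of member tests that passed from 7 to 14, and leaving out the whole time course raised it to 19.

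At 96 h Cdx4 spanned the widest range over the mutants, from 2.93 to 55.5 FPKM (15 libraries, median 21.5). Ins(2xCBS-d4d8) was at the top with 55.5 and 44.8 FPKM (log2 difference 1.43, SE 0.669, adjusted p = 0.111, and 6.50e-05 in the fit outside the time course). Del(CBS2) had 6.55 and 5.68 FPKM (-1.58, adjusted p = 0.263, and 0.000336 in that fit) and Del(d1-d4) 10.6 and 10.004 FPKM. The libraries of Del(CBS1), Del(CBS1-2) and Del(CBS1-5) lay between 21.5 and 30.1 FPKM. At 144 h Del(CBS4), with 12.8 and 11.0 FPKM, and Del(CBS1-5), with 7.34 and 8.77 FPKM, were above wt outside the time course and below that inside it.

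**Figure D4:**
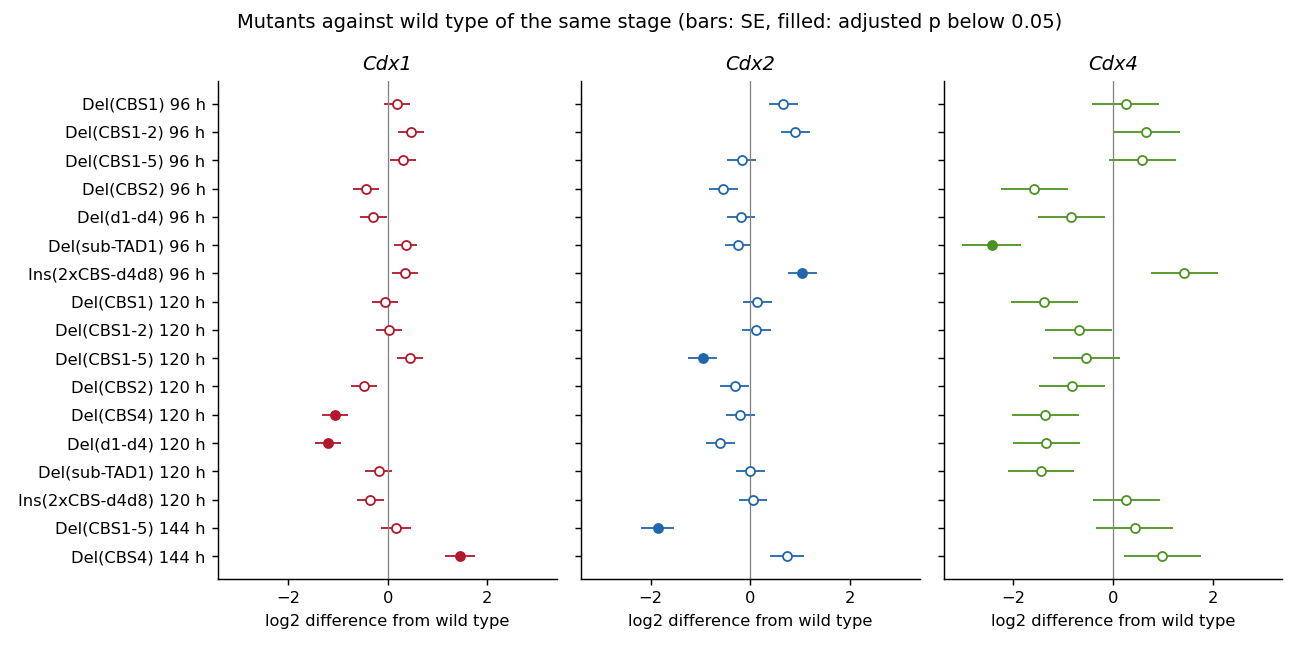
Log2 difference of Cdx1, Cdx2 and Cdx4 between each mutant condition and stage-matched wild type outside the time course, with bars of 1 SE and filled points for the 7 of 51 tests past the adjusted threshold. The SE of Cdx4, 0.669 for most conditions, is wider than those of Cdx1 (0.264) and Cdx2 (0.290).

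Tissue markers moved beside the Cdx1 calls too. In Del(d1-d4) at 120 h, 5 of 12 FGF genes, 4 of 12 Wnt effectors and targets and 3 of 8 axial progenitor genes were lower (medians -0.76, -0.57 and -0.83), Wnt3a by -2.28 and Msgn1 by -2.59. In Del(CBS4) at 120 h 5 of 7 presomitic mesoderm genes were lower (median -0.75) and 5 of 6 spinal cord genes higher with 1 lower (median 2.21), while the summed spinal cord genes stood at 92.4 to 142 FPKM against 18.0 to 34.7 FPKM in wt. At 144 h in that line 4 of 8 axial progenitor genes and 3 of 7 presomitic mesoderm genes were higher than in wt outside the time course. Of all 17098 genes tested, 209 were higher and 141 lower there. No list was tested as such, and the part of the make-up of the tissue in the Cdx1 values was not tested.

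**Figure D5:**
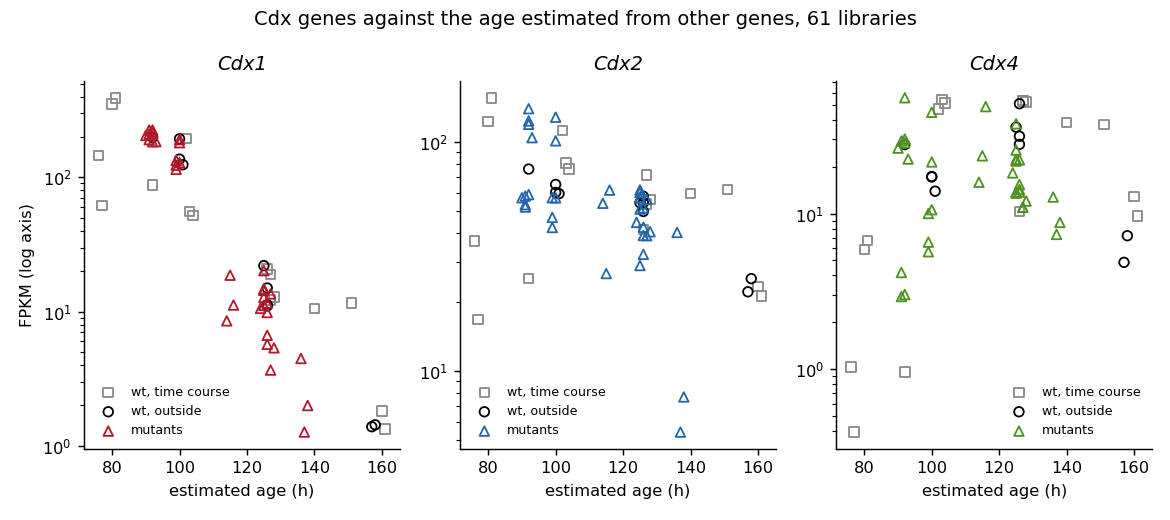
FPKM (log axis) of Cdx1, Cdx2 and Cdx4 in all 61 libraries against the age in hours estimated from genes other than Hox and Cdx genes, with squares for the time course, circles for wild type outside it and triangles for mutants. Wild type labelled 144 h outside the time course sits at 157 and 158 h, and Cdx4 at about 92 h reaches from 0.953 to 55.5 FPKM.

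The time-course profiles of the members differed from each other. Over the 8 stage means of log2(FPKM + 0.1), Pearson's r was 0.585 between Cdx1 and Cdx2, 0.398 between Cdx2 and Cdx4 and -0.424 between Cdx1 and Cdx4, as descriptions over points that share libraries. The genes most like Cdx1 were Spry2, an FGF antagonist (r = 0.987), Msgn1 (0.985), Il17ra (0.985), Smc6 (0.982) and Tmem114 (0.981). Those most like Cdx2 were Lactb (0.956), Smim3 (0.956), Mitf (0.953), Nfatc1 (0.952) and AW551984 (0.951), and those most like Cdx4 were Ccdc166 (0.987), Dcaf5 (0.979), Epha5 (0.978), Usp46 (0.977) and Hyal2 (0.977).

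Genes next to the members on the chromosome were lower than the members' peaks. Slc6a7 and Pdgfrb flank Cdx1, Urad and Pdx1 flank Cdx2, and Nap1l2 and Chic1 flank Cdx4. Slc6a7 reached at most 0.855 FPKM and Pdx1 at most 0.631 FPKM in any library. Pdgfrb, a receptor of mesenchymal cells, ranged from 2.27 to 22.7 FPKM, Urad from 0 to 4.71 FPKM, Nap1l2 from 0.400 to 3.05 FPKM and Chic1 from 1.14 to 5.09 FPKM. Over all comparisons 8 tests of Pdgfrb, 3 of Nap1l2 and 1 each of Urad and Chic1 passed the threshold.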

How the data were processed

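Cdx1, Cdx2 and Cdx4 were followed in 61 libraries as FPKM values deposited by the authors, who aligned stranded poly-A reads to mm10 with STAR 2.7.7a after cutadapt 1.16 and ran Cufflinks 2.2.1 on uniquely mapped reads. No column of per-sample values lacked a sample (0 left out). Depth was inferred from the Cufflinks intervals of genes with 100 to 5000 fragments and transcripts of at least 5000 bases, and such intervals cover counting error only. The members, gene lists and tests were chosen with earlier results of these data known.

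With limma 3.58.1 (R 4.3.3), a linear model of log2(FPKM + 0.1) had 1 coefficient for each of 28 conditions, so that all libraries shared 1 estimate of the spread. The 17098 genes with a mean of 1 FPKM or more in any condition were tested, two-sided, with Benjamini-Hochberg adjustment per comparison and a threshold of 0.05. The pseudocount understates changes of low genes. Mutants were compared with wt libraries of the stage outside the time course, and changes between 2 stages by interaction. Named genes were the members, the 5 tested genes with the highest Pearson r for each (Gm and Rik names left out), the nearest named neighbours, and list genes past the threshold in comparisons where a member passed. Genes of the trophectoderm and gut endoderm lists were named as markers, Krt8, Krt18, Epcam and Cldn6 after their values were seen. Ages were estimated in 1 h steps by comparing 1000 variable genes with the interpolated time course. Its own libraries were compared with the other replicate only. Library sets were split at 100 FPKM of mt-Co3. Over the tested genes, Pearson r with the nearest time-course library was 0.738 to 0.776 in the high set and 0.920 to 0.973 in the low set. The fit was tested on simulated data. Pseudocounts, filters, scaling, variance trend, replicate block, wild-type choice, age, the libraries in the fit and leaving out replicates were varied. Promoters came from RefSeq (GRCm38.p6). Python 3.11.15 and matplotlib 3.10.9 were used.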

Additional observations from a re-analysis of the deposited data

Results flagged for a closer look

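Cdx1 in Del(CBS4) was the only result of its kind that differed between stages. Its change from 120 to 144 h differed from that of wild type by 2.52 on the log2 scale (SE 0.404, adjusted p = 7.57e-05 by limma's interaction test), from 8.53 and 5.37 FPKM to 4.47 and 3.67 FPKM against a fall in wt from 11.0 to 22.0 FPKM down to 1.39 and 1.43 FPKM. At 120 h the estimated ages were 125 to 126 h in wild type and 114 and 128 h in the mutant. Wild type at 144 h had estimated ages of 157 and 158 h and the mutant 136 and 127 h. The part of age was not tested beyond the fit relative to the time course at the estimated age, which gave 1.14 (adjusted p = 0.215). In the 6 sets of 4 wt values that could be tested (3 genes at 96 and 120 h), no library stood apart by Dixon's 95% critical value.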

How the results depend on the processing

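The tests of single members gave 1950 values under other settings, of which 1846 kept their direction and side of the threshold or changed sign with neither value past it (65), 57 passed only there, 37 no longer passed and 10 turned round. Of 51 mutant tests 7 passed, against 3 with only the libraries compared, none of them of Cdx1. With wild type of the same library set 6 passed. There Cdx1 in Del(CBS4) at 144 h (0.015) and Cdx4 in Del(sub-TAD1) at 96 h (-1.47) no longer passed. Cdx4 in Ins(2xCBS-d4d8) at 96 h did (2.40, adjusted p = 0.0273 by limma). Settings chosen after seeing the data gave 15 with the time course as the only wild type and 19 with only the libraries outside it. Without replicate 2 of the time course at 96 h, a setting chosen likewise, 14 passed. Of 27 tests of change between stages 1 passed, against 10 with only the libraries outside the time course, 4 without that replicate, 0 with only the libraries compared and 0 at the estimated age (limma, with 15 and 6 at an unadjusted p under 0.05). Of 21 time-course steps 10 passed, and 4 with only the time-course libraries, where Cdx4 from 72 to 84 h, Cdx2 from 84 to 96 h, Cdx1 and Cdx4 from 96 to 108 h, Cdx1 from 108 to 120 h and Cdx2 from 144 to 168 h did not pass. Leaving out libraries gave 9 to 12 steps, 2 tests of 168 h against 84 h, 6 to 14 mutant tests, 1 to 4 tests of change and 2 to 6 tests of wild type outside against inside the time course (3 with all libraries, 5 without replicate 2 at 96 h).

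Values that turned round were those of Cdx4 from 84 to 96 h (-2.50 without time-course replicate 1, from 0.14), and, for wild type at 96 h outside against inside the time course, Cdx2 (-0.79 without time-course replicate 2, or without it at 96 h alone, from 0.28) and Cdx4 (-1.34 in both, from 1.40). With the same sign and now past the threshold were Cdx4 from 84 to 96 h without replicate 2 at 96 h (2.88) and, without time-course replicate 1, Cdx2 and Cdx4 of that wild-type comparison (1.35 and 4.14). In mutants at 144 h the values that turned round were, with the time course as the only wild type, Cdx1 in Del(CBS1-5) (-2.72, from 0.16), Cdx4 in Del(CBS1-5) (-2.23, from 0.43) and Cdx1 in Del(CBS4) (-1.43, from 1.46), and, at the estimated age, Cdx1 in Del(CBS1-5) (-1.48) and in Del(CBS4) (-0.37). The causes were not tested.

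With the replicate block 10 steps, 2 tests of 168 h against 84 h, 7 mutant tests, 1 test of change and 2 of wild type passed. It ended the calls of Cdx1 in Del(d1-d4) at 120 h (-0.94, adjusted p = 0.0556) and of Cdx4 in wild type at 144 h (-2.06, adjusted p = 0.116), and added Cdx1 in Del(CBS1-5) at 120 h (0.70, adjusted p = 0.0445). Same-numbered libraries did not deviate together, with correlations from -0.14 to 0.13, so the numbers only name libraries. Cdx4 at 72 h, with as few as 14.7 fragments, is limited by depth.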
